A study of Mus musculus with 16 samples.

Results

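C2C12 is a mouse myoblast line that fuses into multinucleated myotubes when growth medium is withdrawn. The untransfected C2C12 pair is 1 expression array labelled differentiated C2C12 cells, or myotubes, and 1 array labelled C2C12 myoblasts, chosen by their sample titles. These are 2 of the 16 arrays of the series. The pair most like it comes from the same array set and has 1 array labelled myotubes and 1 labelled myoblasts of C2CT, which is C2C12 stably transfected with Galgt2, a glycosyltransferase gene now called B4galnt2. The other 12 arrays are gastrocnemius muscle of male mice aged 2 months in 6 groups of 2: AAV-Galgt2 and PBS in mdx muscle, transgenic mdx, mdx, Galgt2 transgenic and wild type. The labels give no medium, number of days in culture or number of clones for either line. With 1 array per labelled stage there is no replicate error for the cell lines, so every difference is given as a value with no test.

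Proliferating myoblasts express the muscle determination factors Myf5 and Myod1 together with cell cycle genes. On differentiation they leave the cell cycle, express Myog and Mef2 factors, fuse, and build sarcomeres, so that sarcomere, calcium handling and muscle metabolism transcripts are known to be higher in myotubes than in myoblasts, and cell cycle transcripts lower. Myosin heavy chains such as Myh4 are the motors of the thick filament, Myl2 is a slow fibre and cardiac myosin light chain, and Dmd encodes dystrophin, which links the actin cytoskeleton to a membrane complex.

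The labelled line was first set against B4galnt2, on the brightest of its 4 probe sets. Its log2 level was 10.82 on the array labelled C2CT myotubes and 9.76 on the array labelled C2CT myoblasts, while untransfected C2C12 had 4.81 on the array labelled myotubes and 4.58 on the array labelled myoblasts. The other 3 probe sets of the gene were near the floor on all 4 arrays (log2 3.61 to 5.16). On the brightest, both transfected arrays were high and both untransfected arrays low, as the line labels say. Xist, the RNA of the inactive X chromosome, had a log2 level between 11.96 and 12.19 on all 4 arrays. B4galnt2 and Xist carry no information on the stage.

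The stage labels of the untransfected pair went against the muscle genes. Myh4, the fast IIB myosin, had a log2 level of 4.40 on the array labelled C2C12 myotubes, against 9.62 on the array labelled C2C12 myoblasts, 37.2-fold lower. In C2CT cells it had 8.87 on the array labelled myotubes, against 5.39 on the array labelled myoblasts. Myl2 had 7.76 in labelled C2C12 myotubes, against 12.49 in labelled C2C12 myoblasts, 26.4-fold lower. For Myl2 the C2CT arrays had 12.51 in labelled myotubes, against 5.20 in labelled myoblasts. Thus both genes were high on the array labelled C2C12 myoblasts and on the array labelled C2CT myotubes, and low on the other pair of arrays. Dmd, on the brightest of its 4 probe sets, followed the same order, with 6.18 in labelled C2C12 myotubes, against 8.95 in labelled C2C12 myoblasts, and with 8.91 in labelled C2CT myotubes, against 4.60 in labelled C2CT myoblasts. A further Dmd probe set gave a C2C12 log2 difference of -3.93. Of the other 2 Dmd probe sets, 1 had the same signs by less in C2C12 (-0.18, and 1.41 in C2CT), and 1 was higher in the labelled myotubes of both lines (1.21 in C2C12 and 1.16 in C2CT). All 3 genes thus contradict the labelled direction in C2C12, and from here on the stage names are only the names of the arrays.

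**Figure D1:**
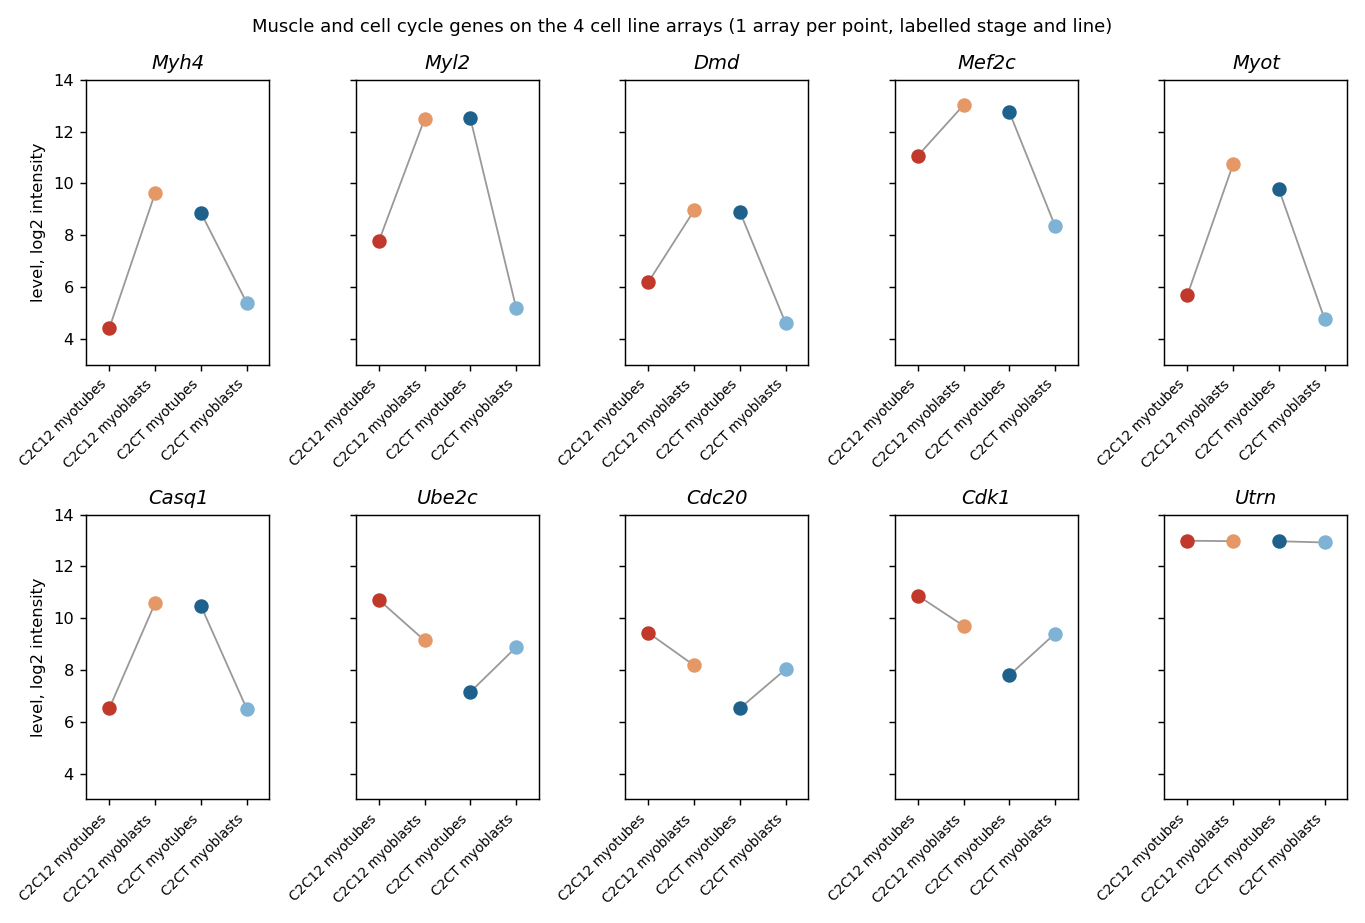
Log2 intensity (y axis) of 10 genes on the 4 cell line arrays (x axis, labelled line and stage), 1 point per array, with grey lines joining the arrays of a line. Myh4, Myl2, Dmd, Mef2c, Myot and Casq1 are lower on the array labelled C2C12 myotubes than on that labelled C2C12 myoblasts and run the other way in C2CT, Ube2c, Cdc20 and Cdk1 do the reverse, and Utrn lies near 13 throughout.

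Genes of muscle structure, calcium handling, synapse and energy use were mostly lower in labelled C2C12 myotubes. The pair was taken up with the direction of its muscle genes already known. The counts below therefore describe that direction and are no separate support for it. Myh4, Myl2 and Dmd are in the lists and are counted among the lower genes. Of 117 genes in 8 muscle lists, 113 were measured, and 68 of these were at least 2-fold lower and 0 at least 2-fold higher, against 4.27% of all 18194 genes lower and 4.09% higher. Their log2 difference was below 0 for 105 of 113 genes (46.9% of all genes) and had a median of -1.30 (all genes 0.02). In the C2CT pair 43 of the 113 were at least 2-fold higher and 1 lower, against 3.35% and 2.24% of all genes, with a median of 0.65 (all genes -0.09). In that pair 96 of the 113 were above 0 (39.3% of all genes). Between replicate arrays of the 6 muscle groups, the only replicates of the series, the median of the same genes lay between -0.01 and 0.10, but those are another tissue and other array sets. With 1 array a label, the stage and the array cannot be told apart, and in a whole culture neither can fewer myotubes and less RNA per myotube.

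The developmental sarcomere list holds fetal and embryonic sarcomere genes, Acta1 and Myl1, which adult muscle also expresses, and Chrng, an acetylcholine receptor subunit. In labelled C2C12 myotubes 7 of the 10 genes, Chrng included, were at least 2-fold lower. All 10 were lower there, with a median of -1.06, against 1.02 in the C2CT pair. Myh8, the neonatal myosin, showed this most, with a log2 level of 5.94 in labelled C2C12 myotubes, against 10.06 in labelled C2C12 myoblasts. In C2CT it had 9.60 in labelled myotubes, against 4.96 in labelled myoblasts. The other 9 members lay between -0.84 and -1.49. Myh3, the embryonic myosin, had 11.48 in labelled C2C12 myotubes, against 12.46 in labelled C2C12 myoblasts, and Actc1, cardiac alpha actin, had 11.89 in labelled C2C12 myotubes, against 13.10 in labelled C2C12 myoblasts.

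Of the adult fast fibre genes 12 of 14 measured were at least 2-fold lower in labelled C2C12 myotubes, with a median of -1.88 (1.63 in the C2CT pair). Myh2, the fast IIA myosin, had a log2 level of 6.14 in labelled C2C12 myotubes, against 11.08 in labelled C2C12 myoblasts. Mybpc2, fast myosin-binding protein C, had 5.84 in labelled C2C12 myotubes, against 10.07 in labelled C2C12 myoblasts. Casq1, the calcium store protein of the fast sarcoplasmic reticulum, had 6.52 in labelled C2C12 myotubes, against 10.58 in labelled C2C12 myoblasts, and the C2CT arrays mirrored it with 10.48 in labelled myotubes, against 6.51 in labelled myoblasts. Casq1 thus had nearly the same levels on arrays of crossed labels, whereas Myh2 had 11.09 in labelled C2CT myotubes, against 7.46 in labelled C2CT myoblasts. Pvalb, the calcium buffer parvalbumin, had 6.33 in labelled C2C12 myotubes, against 9.56 in labelled C2C12 myoblasts, but 12.07 in labelled C2CT myotubes, against 9.45 in labelled C2CT myoblasts. Mylk2, the skeletal myosin light chain kinase, was lower in the labelled myotubes of both lines (-1.17 in C2C12 and -0.61 in C2CT).

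Slow fibre genes were at least 2-fold lower in 7 of 13 cases, with a median of -1.23 (0.45 in C2CT). Beside Myl2, Mybpc1, slow myosin-binding protein C, had a log2 level of 8.85 in labelled C2C12 myotubes, against 11.36 in labelled C2C12 myoblasts. Myoz2, a calcineurin-binding Z-disc protein, had 9.03 in labelled C2C12 myotubes, against 11.54 in labelled C2C12 myoblasts. Fhl2 (0.57), Tpm3 (0.39), Myl3 (0.23) and Atp2a2 (0.07) were the 4 slow list genes above 0.

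Z-disc and scaffold genes, which anchor and align the filaments, were lower in 24 of 24 cases and at least 2-fold lower in 17, with a median of -1.71 (0.71 in C2CT). Myot, the Z-disc protein myotilin, had a log2 level of 5.68 in labelled C2C12 myotubes, against 10.73 in labelled C2C12 myoblasts. In C2CT it had 9.78 in labelled myotubes, against 4.76 in labelled myoblasts. Tcap, the titin cap, gave a log2 difference of -3.90, Actn2, the Z-disc actinin, -3.12, and Trim63, a muscle ubiquitin ligase, -2.87. Des, the intermediate filament desmin, which myoblasts already make, was lower by less (-0.83).

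Genes of muscle energy use had the largest median of the 8 muscle lists in the C2C12 pair, -2.43, against 2.20 in the C2CT pair. Of 15 genes 12 were at least 2-fold lower in labelled C2C12 myotubes and 0 higher. Cox8b, a muscle subunit of cytochrome oxidase, had a log2 level of 7.85 in labelled C2C12 myotubes, against 11.34 in labelled C2C12 myoblasts. Mb, the oxygen store myoglobin, had 9.58 in labelled C2C12 myotubes, against 12.25 in labelled C2C12 myoblasts, and Pygm, muscle glycogen phosphorylase, had 7.13 in labelled C2C12 myotubes, against 10.18 in labelled C2C12 myoblasts. The 3 genes under 2-fold were Aldoa, the muscle aldolase (-0.49), Ckb, the brain creatine kinase (-0.30), and Ldha, a lactate dehydrogenase subunit (-0.22). Ckm, the muscle creatine kinase, was at -1.77.

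Excitation-contraction coupling genes were at least 2-fold lower in 6 of 14 cases (median -0.89, and 0.31 in C2CT). Cacna1s, the voltage sensor of the transverse tubule, had a log2 level of 6.79 in labelled C2C12 myotubes, against 9.16 in labelled C2C12 myoblasts. Acetylcholine receptor and synapse genes were at least 2-fold lower in 3 of 10 cases and below 0 in all 10, with a median of -0.69. That list did not turn over in C2CT, where its median was -0.02. Chrnd, the receptor delta subunit, was -1.58 in C2C12 and 1.17 in C2CT. Musk, the kinase that clusters the receptor, was -1.59 in C2C12 and -0.07 in C2CT.

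In the dystrophin-glycoprotein complex 4 of 13 genes were at least 2-fold lower, with a median of -0.22 (0.18 in C2CT). The 4 were Dmd, Dysf, a membrane repair protein (-1.64), and the sarcoglycans Sgca (-1.45) and Sgcd (-1.30). Utrn, the dystrophin relative utrophin, had a log2 level of 12.99 in labelled C2C12 myotubes, against 12.97 in labelled C2C12 myoblasts. Sgce, a sarcoglycan also found outside muscle, and Sntb2, a syntrophin, were above 0 at 0.74 and 0.80.

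**Figure D2:**
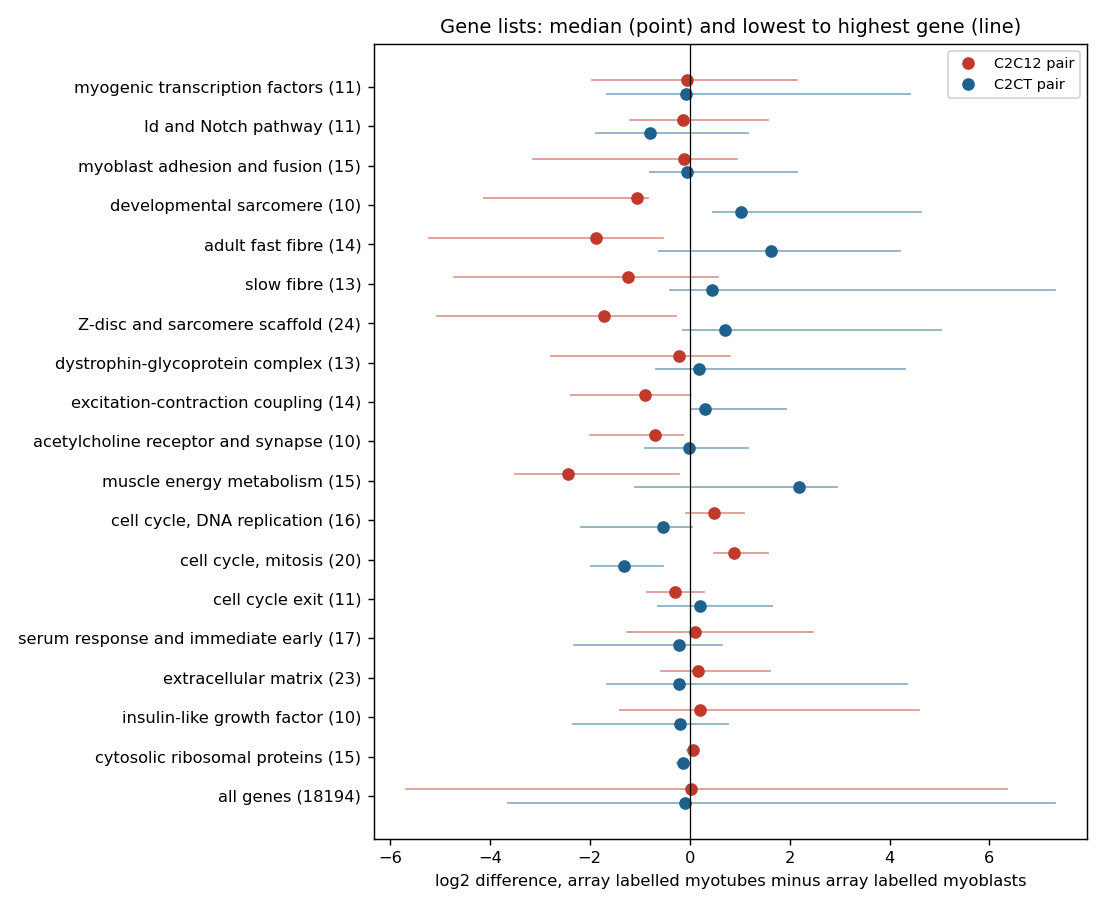
Median log2 difference (points) and the lowest to highest gene (lines) of each gene list, labelled myotubes minus labelled myoblasts, for the C2C12 pair (red) and the C2CT pair (blue), with the number of measured genes in brackets. The sarcomere, fibre and energy lists lie left of 0 in C2C12 and right of 0 in C2CT, the cell cycle lists do the opposite, and ribosomal proteins stay near 0 in both (0.07 and -0.13).

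Regulators of myogenesis differed less than the structural genes. Of 11 measured transcription factors 1 was at least 2-fold higher in labelled C2C12 myotubes (4.09% of all genes) and 1 lower (4.27% of all genes). The median of the list was -0.06 in C2C12 and -0.06 in C2CT, so the list did not turn over. Myf5, the determination factor of myoblasts, had a log2 level of 11.70 in labelled C2C12 myotubes, against 9.56 in labelled C2C12 myoblasts, 4.41-fold higher. Mef2c, which activates sarcomere genes, had 11.07 in labelled C2C12 myotubes, against 13.02 in labelled C2C12 myoblasts, and all 5 of its probe sets had C2C12 differences between -1.95 and -3.43. In C2CT, Mef2c had 12.75 in labelled myotubes, against 8.35 in labelled myoblasts. Myod1 (-0.06) and Myog (-0.50) were under 2-fold in the C2C12 pair. Myog, a factor made on commitment to differentiate, was at a log2 level of 12.76 in labelled C2C12 myotubes, 13.25 in labelled C2C12 myoblasts, 13.15 in labelled C2CT myotubes and 12.88 in labelled C2CT myoblasts. None of the 4 arrays therefore had a low Myog level, whatever its label.

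Fusion genes were split. Mymk, the fusion protein myomaker, had a log2 level of 9.85 in labelled C2C12 myotubes, against 11.16 in labelled C2C12 myoblasts. Cav3, the muscle caveolin, had 7.58 in labelled C2C12 myotubes, against 10.72 in labelled C2C12 myoblasts. Mymx, the fusion peptide myomixer, was near level at -0.10. Of 15 genes of the list 4 were at least 2-fold lower (4.27% of all genes) and 0 higher (4.09% of all genes). Adam12, 1 of these 4, was lower in both pairs (-1.27 in C2C12 and -0.51 in C2CT). In C2C12 11 of the 15 were below 0 and 4 above, and in C2CT 10 were below and 5 above. The median of the fusion list was -0.10 in C2C12 and -0.06 in C2CT, so the list did not turn over. Among Id and Notch pathway genes, which hold back differentiation, 2 of 11 were at least 2-fold higher (4.09% of all genes) and 1 lower (4.27% of all genes), with a median of -0.14 in C2C12 and -0.80 in C2CT. Id3 was at 1.29 in C2C12 and -1.88 in C2CT, Hey1 at 1.56 in C2C12 and -1.30 in C2CT, and Id4 at -1.20 in C2C12 and 1.16 in C2CT. Of the 11 genes 5 had opposite signs in the pairs, as did 11431 of all 18194 genes.

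Cell cycle genes ran opposite to the muscle genes in both pairs. The median of both cell cycle lists was 0.70 in the C2C12 pair and -0.98 in the C2CT pair. The median log2 level of these genes was 9.6 in labelled C2C12 myotubes, against 8.8 in labelled C2C12 myoblasts. It was 7.8 in labelled C2CT myotubes, against 8.6 in labelled C2CT myoblasts. By this median both C2C12 arrays thus lay above both C2CT arrays, unlike the crossed levels of Myh4 and Myl2. Of 20 measured mitosis genes all 20 were above 0 in the C2C12 pair (52.8% of all genes) and 6 were at least 2-fold higher (background 4.09%), with a median of 0.88. In C2CT all 20 were below 0 (60.5% of all genes) and 15 at least 2-fold lower (background 2.24%), with a median of -1.32. Ube2c, the ubiquitin conjugating enzyme of mitotic exit, had a log2 level of 10.71 in labelled C2C12 myotubes, against 9.14 in labelled C2C12 myoblasts. Cdc20, its partner in mitosis, had 9.44 in labelled C2C12 myotubes, against 8.18 in labelled C2C12 myoblasts. Cdk1, the mitotic kinase, had 10.87 in labelled C2C12 myotubes, against 9.71 in labelled C2C12 myoblasts. Among DNA replication genes 1 of 16, the licensing factor Cdt1 (1.09), was at least 2-fold higher, with a median of 0.48 (-0.53 in C2CT). Ccnd1, the growth-factor-induced cyclin D1, had 11.76 in labelled C2C12 myotubes, against 9.29 in labelled C2C12 myoblasts. Cdkn1a, the cell cycle inhibitor p21, was -0.85 in C2C12 and 0.44 in C2CT on the brighter of its 2 probe sets. The other Cdkn1a probe set was at -1.53 in C2C12 and 1.03 in C2CT.

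The error of the cell cycle difference is not known, since the cell lines have no replicate. Between replicate muscle arrays the median of the 36 cell cycle genes lay between -0.37 and 0.92, a range that holds the C2C12 value of 0.70. Those arrays are another tissue and other array sets, so that range does not measure the error between C2C12 cultures. The array labelled C2CT myotubes was the lowest of the 4 for 35 of 36 cell cycle genes, and the array labelled C2C12 myotubes was the highest for 33. Over all genes those shares were 25.8% and 25.5%. For the 113 muscle genes the array labelled C2C12 myotubes was the lowest of the 4 in 82 cases (32% of all genes).

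The pairs, which share no array, were next compared gene by gene. Of the 777 genes at least 2-fold lower in labelled C2C12 myotubes, 319 (41.1%) were at least 2-fold higher in labelled C2CT myotubes and 13 (1.67%) lower. Of the 610 genes at least 2-fold higher in C2CT, these 319 are 52.3%. Of the 744 genes at least 2-fold higher in labelled C2C12 myotubes, 140 (18.8%) were lower in C2CT and 64 (8.6%) higher. Of the 407 genes lower in C2CT, the 140 are 34.4%. As shares of all genes the 4 combinations were 1.75%, 0.0715%, 0.769% and 0.352% in that order. Pearson's r between the log2 differences of both pairs was -0.47 over 18194 genes, which are not independent replicates and were measured in 1 array set.

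**Figure D3:**
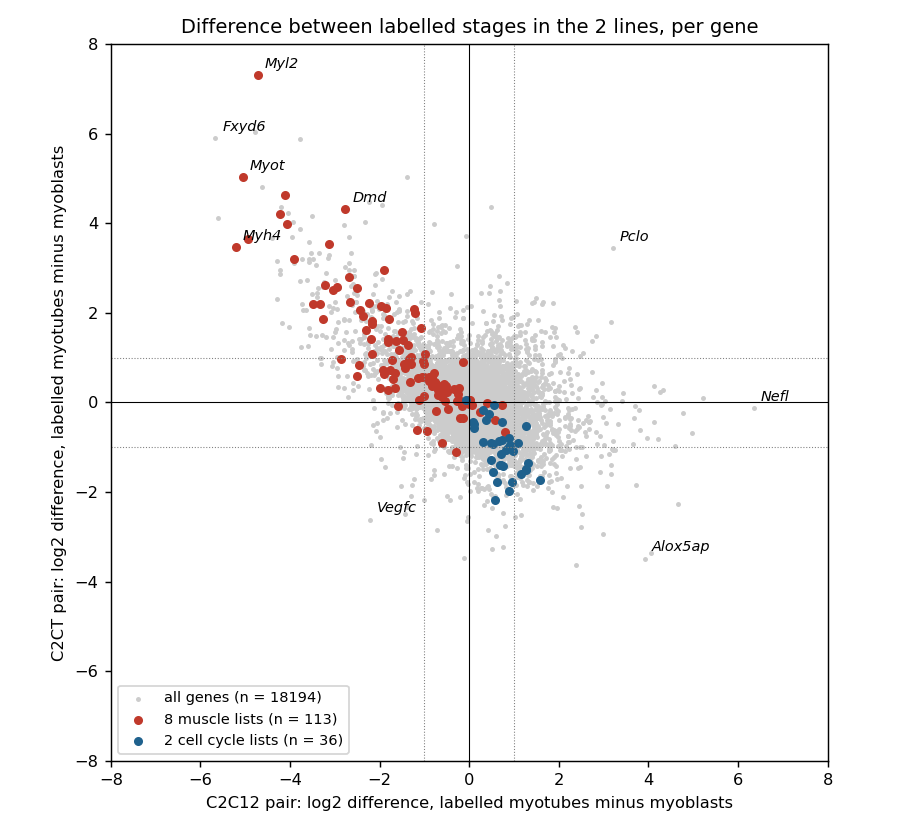
Log2 difference of labelled myotubes minus labelled myoblasts in the C2C12 pair (x axis) and in the C2CT pair (y axis), 1 point per gene, with dotted lines at 2-fold. Most of the 113 muscle genes (red) lie at upper left and most of the 36 cell cycle genes (blue) at lower right, while Nefl lies on the x axis and Pclo and Vegfc have the same sign in both pairs.

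Genes outside the muscle lists that were chosen for a large difference in C2C12 or for opposite signs in the pairs are given here as a description. Fxyd6, a regulator of the sodium pump, had the largest negative difference of the C2C12 pair, with a log2 level of 5.60 in labelled C2C12 myotubes, against 11.27 in labelled C2C12 myoblasts. Its C2CT levels were 10.72 in labelled myotubes, against 4.82 in labelled myoblasts. Rai2 had 5.93 in labelled C2C12 myotubes, against 10.71 in labelled C2C12 myoblasts, and Tspan13, a tetraspanin, was at -4.05 in C2C12 and 4.23 in C2CT. In the other direction, Alox5ap, the activating protein of 5-lipoxygenase, had 9.79 in labelled C2C12 myotubes, against 5.87 in labelled C2C12 myoblasts. Alox5ap was reversed in C2CT, with 5.45 in labelled myotubes, against 8.93 in labelled myoblasts. Fosl1, an AP-1 subunit of growing cells, was 2.45 in C2C12 and -2.31 in C2CT.

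Over all genes, the closest 2 of the 4 arrays had crossed labels. The arrays labelled C2C12 myoblasts and C2CT myotubes had 579 genes (3.18%) at least 2-fold apart and r = 0.990 over log2 levels. The arrays labelled C2C12 myotubes and C2CT myoblasts had 1124 (6.18%). The C2C12 pair had 1521 (8.36%) and the C2CT pair 1017 (5.59%). Arrays of the same labelled stage had 1685 genes (9.26%) apart for labelled myotubes of both lines and 1135 (6.24%) for labelled myoblasts. Both counts were above those of the crossed stages, but 1135 was close to the 1124 of the further crossed pair. The C2CT pair, at 1017, was closer than that crossed pair. The mdx muscle replicates differed in 1709 genes (9.39%), and those of the other muscle groups in 213 (1.17%) to 909 (5%). The number of genes in the C2C12 pair alone thus lies inside the range of muscle replicates, but only through the mdx group. Each muscle group was counted on its own brightest probe sets.

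**Figure D4:**
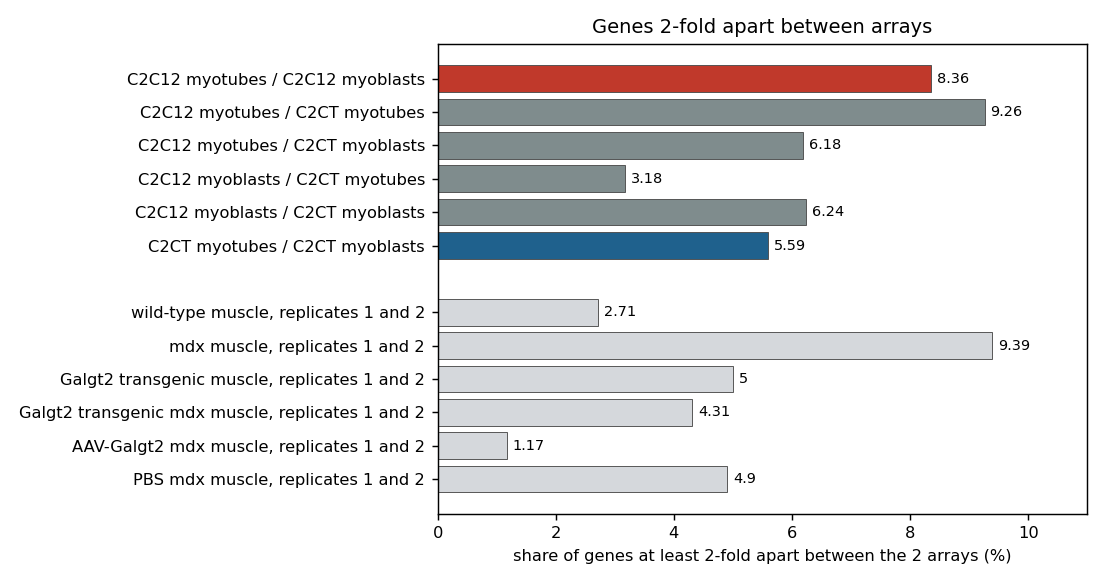
Share of genes at least 2-fold apart (x axis, %) for the 6 pairs of cell line arrays, named by label, and for the 2 replicates of each muscle group. The C2C12 pair is red and the C2CT pair blue; the pair of labelled C2C12 myoblasts and C2CT myotubes is the closest of the 6 at 3.18%.

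A part of the C2C12 pair had no counterpart in C2CT. Nefl, the light neurofilament protein, had the largest positive difference, with a log2 level of 10.48 in labelled C2C12 myotubes, against 4.13 in labelled C2C12 myoblasts, and 5.42 in labelled C2CT myotubes, against 5.56 in labelled C2CT myoblasts. Both Nefl probe sets showed it (6.35 and 5.70). Gap43, a growth cone protein, had 9.25 in labelled C2C12 myotubes, against 4.03 in labelled C2C12 myoblasts, with -0.13 for Nefl and 0.09 for Gap43 as the C2CT differences. A further 3 genes were high on that array and lower on the other 3: Slc14a1, a urea transporter (4.77), Itga4, integrin alpha 4 (4.33), and L1cam, a neural adhesion molecule (4.13). Il33, an interleukin, was different in kind. It had 11.48 in labelled C2C12 myotubes, against 6.50 in labelled C2C12 myoblasts, and 8.69 in labelled C2CT myotubes, against 9.38 in labelled C2CT myoblasts, so that its lowest level was in labelled C2C12 myoblasts. Igfbp2, which binds insulin-like growth factors, had the same shape, with 11.06 in labelled C2C12 myotubes, against 6.47 in labelled C2C12 myoblasts, and 9.94 in labelled C2CT myotubes, against 10.91 in labelled C2CT myoblasts.

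In the labelled myotubes of both lines 64 genes (0.352% of all genes) were at least 2-fold higher and 13 (0.0715%) at least 2-fold lower. The 64 are 8.6% of the 744 genes higher in C2C12, against 3.35% of all genes higher in C2CT. The 13 are 1.67% of the 777 genes lower in C2C12, against 2.24% of all genes lower in C2CT. Pclo, a presynaptic scaffold gene, was higher by 3.20 in C2C12 and 3.44 in C2CT, but its other 2 probe sets were under 2-fold (-0.06 and 0.84 in C2C12). Dkk2, a Wnt antagonist, was at 3.17 in C2C12 and 1.81 in C2CT, and Tslp, a cytokine, at 1.84 in C2C12 and 1.69 in C2CT. Vegfc, a lymphatic growth factor, was lower in the labelled myotubes of both lines on all 3 of its probe sets. It had a log2 level of 5.86 in labelled C2C12 myotubes, against 8.08 in labelled C2C12 myoblasts, and a C2CT difference of -2.62. Igfbp3, another binding protein of insulin-like growth factors, was at -1.39 in C2C12 and -2.33 in C2CT. Nrarp, a Notch feedback gene, was at -1.31 in C2C12 and -2.10 in C2CT.

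**Figure D5:**
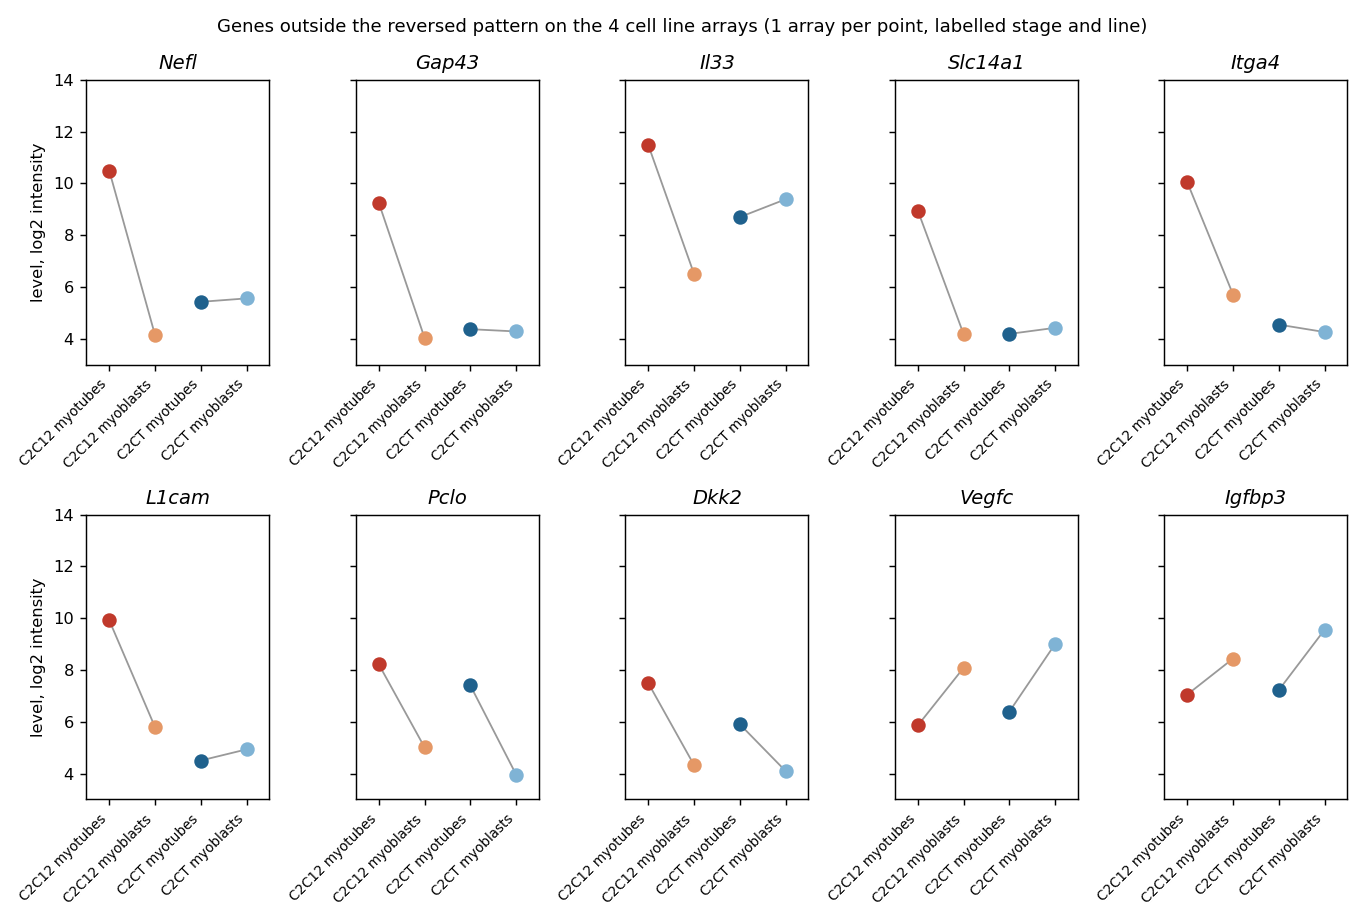
Log2 intensity (y axis) of 10 genes on the 4 cell line arrays (x axis, labelled line and stage), 1 point per array, with grey lines joining the arrays of a line. Nefl, Gap43, Slc14a1, Itga4 and L1cam are high on the array labelled C2C12 myotubes only, Il33 is lowest on that labelled C2C12 myoblasts, and Pclo, Dkk2, Vegfc and Igfbp3 have the same sign in both lines.

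Promoter sequences are shown for 2 genes of the muscle lists, Myh4 and Casq1, for Cav3 of the fusion list, and for 2 mitosis genes, all with opposite signs in the 2 pairs. They come from RefSeq, build GRCm38.p6, and run from 250 bases before to 50 after the gene's start. The E-box CAGCTG, a form that myogenic factors are known to bind, reads the same on both strands. It was in 40 of 112 promoters (35.7%) of the 83 muscle list genes with an entry, against 16.3% of all 32851 promoters, and in 0 of 16 promoters of dystrophin-glycoprotein complex genes. The box CCAAT, read on both strands and thus also as ATTGG, is known from promoters of mitotic genes. It was in 23 of 31 promoters (74.2%) of 30 cell cycle genes, against 37.4% of all. The genes shown were picked by hand, and each holds its motif. CAGCTG was absent from most promoters of the muscle lists, so the genes shown do not stand for those lists. Capitals mark CAGCTG in the first 3 sequences and CCAAT or ATTGG in the other 2. These matches are letters in the sequence and were not measured as binding sites.
Myh4, chr11:67237562-67237861, plus strand: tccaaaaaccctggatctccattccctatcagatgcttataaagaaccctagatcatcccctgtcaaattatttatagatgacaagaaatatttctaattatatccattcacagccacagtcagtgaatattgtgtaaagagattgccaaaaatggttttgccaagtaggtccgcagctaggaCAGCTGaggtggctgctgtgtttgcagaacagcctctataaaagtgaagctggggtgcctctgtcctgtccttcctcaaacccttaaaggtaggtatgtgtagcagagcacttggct
Casq1, chr1:172219846-172220145, minus strand: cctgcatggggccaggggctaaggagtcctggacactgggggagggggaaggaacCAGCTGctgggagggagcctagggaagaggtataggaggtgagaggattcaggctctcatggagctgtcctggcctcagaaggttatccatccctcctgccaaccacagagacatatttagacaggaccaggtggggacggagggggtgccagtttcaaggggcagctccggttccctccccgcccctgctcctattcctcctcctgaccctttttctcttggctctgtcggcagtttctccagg
Cav3, chr6:112459255-112459554, plus strand: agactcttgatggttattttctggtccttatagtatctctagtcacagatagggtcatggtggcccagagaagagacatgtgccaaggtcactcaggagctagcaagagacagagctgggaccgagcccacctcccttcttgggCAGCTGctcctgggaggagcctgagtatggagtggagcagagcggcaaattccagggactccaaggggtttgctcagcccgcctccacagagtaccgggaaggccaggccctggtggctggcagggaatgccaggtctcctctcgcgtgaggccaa
Cdc20, chr4:118437294-118437593, minus strand: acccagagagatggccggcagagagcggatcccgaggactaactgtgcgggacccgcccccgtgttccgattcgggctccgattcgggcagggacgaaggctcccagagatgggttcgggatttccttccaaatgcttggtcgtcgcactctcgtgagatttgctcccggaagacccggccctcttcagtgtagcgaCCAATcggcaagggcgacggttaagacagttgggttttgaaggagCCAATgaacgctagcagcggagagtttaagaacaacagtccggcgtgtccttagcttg
Ube2c, chr2:164769679-164769978, plus strand: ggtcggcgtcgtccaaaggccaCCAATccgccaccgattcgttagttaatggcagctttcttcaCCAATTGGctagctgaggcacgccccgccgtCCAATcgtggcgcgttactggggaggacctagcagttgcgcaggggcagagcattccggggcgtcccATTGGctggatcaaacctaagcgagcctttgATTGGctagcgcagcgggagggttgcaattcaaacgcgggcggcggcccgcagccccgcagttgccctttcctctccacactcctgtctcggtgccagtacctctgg

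The Myh4, Casq1 and Cav3 windows hold 1 E-box each, starting at -67, -195 and -106 from the gene's start. The Cdc20 window holds 2 matches and the Ube2c window 6, of which a CCAAT and an ATTGG overlap in 1 stretch.

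Markers of other cell types were set against the median level of all genes on each array. The share of all genes below that median on all 4 arrays was not counted, so the counts below have no background. Of 14 macrophage genes 12 were below the median of all genes on each of the 4 cell line arrays, the exceptions being Cd14 and Lgals3. All 4 red blood cell and all 4 Schwann cell genes, 8 of 10 endothelial, 5 of 8 adipocyte, 5 of 7 fibroblast and 2 of 5 tendon genes were below it too. The summed intensity of the macrophage list was 4764 in labelled C2C12 myotubes, against 4116 in labelled C2C12 myoblasts. Nearly all of it came from Lgals3 (log2 level 12.07 in labelled C2C12 myotubes, against 11.86 in labelled C2C12 myoblasts). The summed intensity of the endothelial list was 774.1 in labelled C2C12 myotubes, against 290.7 in labelled C2C12 myoblasts, and rested on Flt1 (log2 level 9.19 in labelled C2C12 myotubes, against 6.71 in labelled C2C12 myoblasts). Fibroblast genes summed to 1773 in labelled C2C12 myotubes, against 756.7 in labelled C2C12 myoblasts, with Pdgfra (1.57) and Cd34 (1.68) at least 2-fold higher, Dpt (-1.37) at least 2-fold lower and a median difference of -0.12 over the 7 genes. Adipocyte genes summed to 5865 in labelled C2C12 myotubes, against 2564 in labelled C2C12 myoblasts, and to 3584 in labelled C2CT myotubes, against 6147 in labelled C2CT myoblasts, with Lpl at 1.71 in C2C12. The part of these genes in the muscle gene differences was not tested. The median intensity of all probe sets lay between 57.18 and 60.37 on the 4 arrays. The log2 ratio of 3' to 5' Gapdh probe sets, a measure of RNA integrity, was 0.73 in labelled C2C12 myotubes, against 0.70 in labelled C2C12 myoblasts. The same ratio for Actb was 1.29 in labelled C2C12 myotubes, against 1.04 in labelled C2C12 myoblasts, and 1.02 in labelled C2CT myotubes, against 1.44 in labelled C2CT myoblasts. The Actb ratio was thus higher on the arrays labelled C2C12 myotubes and C2CT myoblasts, where Myh4 and Myl2 were low. This is the reverse of the order of those genes, and the part of the Actb ratio in the result was not tested.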

How the data were processed

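RNA of the 4 cell line cultures and 12 muscles was measured on 16 mouse expression arrays in 3 array sets. The deposited intensity values of 45101 probe sets were made by the authors with GCOS and RMA, per the submitters' processing notes, whose versions are not given in the sources used here. Per the labels' protocols RNA was extracted with Trizol and cleaned on a column, and the labelling text names gastrocnemius muscle for every sample, cells included. The values were converted to log2. Of the probe sets 34958 have 1 gene symbol, 932 several and 9211 none, and 1 was left out for an empty cell. Each of 18194 genes is represented by its brightest probe set over the 4 cell line arrays. Differences are labelled myotubes minus labelled myoblasts, and a gene is counted at a log2 difference of at least 1, or 2-fold. No test was possible with 1 array per label. Of 362 genes in 27 lists 333 were measured. The pair, its genes and the lists were chosen with earlier results of these data known. Named genes are list members, the 15 largest differences each way and the 10 largest of each combination of both pairs. Counting was tested on simulated data. Python 3.11.15, numpy 2.4.6 and pandas 2.3.3 were used.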

Additional observations from a re-analysis of the deposited data

Results flagged for a closer look

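The values here differ in sign between the C2C12 pair and the C2CT pair. For the lists, the gap between the pairs was larger than the median of the same genes between replicate muscle arrays. Those measures are unlike, since the gap rests on 4 arrays and a replicate difference on 2. Taken alone, the C2C12 medians of DNA replication (0.48), both cell cycle lists (0.70) and extracellular matrix (0.16) lay inside their replicate ranges. The sign of a replicate difference is arbitrary. By size alone, the dystrophin-glycoprotein complex (-0.223, with replicate medians from -0.135 to 0.225) was also within its replicate spread. So were cytosolic ribosomal proteins (0.070, with replicate medians from -0.125 to 0.035). The difference between the pairs was not tested, since each has 1 array per label. As the C2C12 median minus the C2CT median (log2), it was -2.08 for developmental sarcomere genes, -3.51 for adult fast fibre genes, -1.68 for slow fibre genes and -2.42 for Z-disc and scaffold genes. It was -0.41 for the dystrophin-glycoprotein complex, -1.20 for excitation-contraction coupling, -4.62 for muscle energy metabolism and -1.95 for the 8 muscle lists together. For cell cycle genes it was 1.01 in DNA replication, 2.20 in mitosis and 1.68 for both lists, and for cell cycle exit genes it was -0.51. Extracellular matrix genes (0.38) and cytosolic ribosomal proteins (0.20) differed least. For the marker genes it was -8.69 for Myh4, -12.04 for Myl2 and -7.08 for Dmd. By gene, 319 were at least 2-fold lower in the C2C12 pair and higher in the C2CT pair, and 140 the reverse.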

How the results depend on the processing

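No paired analysis was possible because each line and stage has 1 array, and for the same reason no array could be left out. Under 6 alternatives 49 of the counts and the correlation stayed close to the reported value and 5 moved, as did 22 of the list medians, while 322 did not. The median of the 8 muscle lists lay between -1.31 and -1.25 in C2C12 and between 0.64 and 0.70 in C2CT. With only genes above the median level, 382 genes were at least 2-fold higher in C2CT, 33 were higher in both pairs and r was -0.61. Higher in both pairs were 35 genes with the mean of all probe sets and 30 with log2(value + 16). With the mean of all probe sets, C2C12 medians were -1.40 for fast fibre, -0.47 for the dystrophin-glycoprotein complex, -1.91 for energy and -0.28 for smooth muscle genes, and C2CT medians were 1.14 for fast fibre, 0.48 for excitation-contraction coupling, 1.85 for energy and -0.28 for smooth muscle genes. With genes above the median level, C2C12 medians were -0.27 for myogenic factors, -2.55 for energy, 0.52 for macrophage, 2.48 for endothelial and 1.62 for fibroblast genes, and C2CT medians were 1.86 for fast fibre, 0.80 for endothelial, -0.77 for adipocyte, -0.75 for fibroblast and 0.54 for line and sex genes. With log2(value + 16), C2CT medians were 1.56 for fast fibre and 2.02 for energy genes. Quantile normalization gave 2.10 for energy genes in C2CT. With the probe set brightest over 16 arrays the C2CT median of line and sex genes was 0.24, and Sox17 in C2CT was 0.55 in place of -1.12. The causes were not tested. The filter on the median level was not run on named genes. Over both pairs, 1466 values of named genes stayed close, 113 moved and 1 reversed. Of 565 alternative values for the 113 named genes at least 2-fold apart in C2C12, 0 changed sign and 546 stayed 2-fold apart.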

Other observations

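Of 23 matrix genes 2 were at least 2-fold higher in labelled C2C12 myotubes (4.09% of all genes) and 0 lower (4.27% of all genes), with a median of 0.16. The collagen VI genes had one sign in each pair: Col6a3 was at 1.62 in C2C12 and -1.65 in C2CT, Col6a2 at 0.82 in C2C12 and -1.11 in C2CT, and Col6a1 at 0.73 in C2C12 and -0.64 in C2CT. Dcn, the proteoglycan decorin, was at 0.50 in C2C12 and 4.35 in C2CT. Of 10 insulin-like growth factor genes, Igfbp4 was at 1.94 in C2C12 and -0.63 in C2CT, and Igf2, a growth factor made by differentiating myoblasts, at -0.97 in C2C12 and 0.41 in C2CT. Among 17 serum response genes Atf3, a stress-induced transcription factor, was at 2.41 in C2C12 and 0.64 in C2CT, while Fos (-0.79) and Egr1 (0.34) were under 2-fold in C2C12. Tagln, a smooth muscle actin-binding protein, was at -1.59 in C2C12 and 0.17 in C2CT.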
